A study of Bos taurus with 9 samples.

Results

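The 10 antioxidant enzymes described here are the superoxide dismutases SOD1, SOD2 and SOD3, catalase (CAT), the glutathione peroxidases GPX1, GPX3 and GPX4, thioredoxin reductase TXNRD1, haem oxygenase HMOX1 and the quinone reductase NQO1. They were taken by gene symbol: every probe set whose single symbol in the platform annotation was one of these names was a member, which gave 12 probe sets among 24016 and 10 genes among 9155 with a named probe set. GPX1 and SOD3 had 2 probe sets each, and for every gene the set of highest mean over the arrays was used unless the second is named. All 10 genes passed any filter on low signal.

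Gene expression was measured with 1 single-colour bovine array for each of 9 samples. The MSC_day0 group held undifferentiated mesenchymal stem cells (MSCs) from calf bone marrow, seeded in the hydrogel agarose and harvested straight away. The MSC_day28 group held the same kind of cells after 28 days in agarose in a chemically defined medium with 10 ng/mL TGF-beta3, a growth factor that induces cartilage formation, and the chondrocytes_day28 group held articular cartilage cells kept in the same gel and medium for the same time. Each group had 3 arrays, 1 from each of 3 donor calves aged 3 to 6 months, and the donors were shared by the groups. Every group is thus a primary cell population in gel culture, with no genetic change, and both groups at day 28 carried TGF-beta3. MSCs cultured without TGF-beta3 and chondrocytes at day 0 were not analysed here, so that time in gel, medium and growth factor cannot be told apart. In such bulk RNA, fewer cells of a type and less RNA per cell cannot be told apart either.

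Cells make superoxide and hydrogen peroxide as by-products of respiration and through dedicated oxidases. Superoxide dismutases turn superoxide into hydrogen peroxide in the cytosol (SOD1, with copper and zinc), the mitochondrial matrix (SOD2, with manganese) and the extracellular space (SOD3), and catalase, glutathione peroxidases and peroxiredoxins then reduce the peroxide to water. GPX1, GPX3, GPX4 and TXNRD1 are selenoproteins, which carry selenocysteine at the active site and depend on selenium supply. HMOX1, NQO1 and TXNRD1 are well-known targets of NRF2, the transcription factor encoded by NFE2L2 that is released from KEAP1 under oxidative stress. In cartilage, SOD3 is a component of the matrix that protects it from superoxide, and SOD2 is known to be lowered in osteoarthritic chondrocytes.

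Values are on the deposited log2 scale, on which a difference of 1 is a 2-fold change, and values of 3 arrays are always given in the order of donors 1, 2 and 3. Each difference is followed by ± its standard error, from 1 limma fit over all probe sets and groups, and a gene was called at a Benjamini-Hochberg adjusted p under 0.05. Levels of different probe sets are not compared, because each set has its own affinity. The day 0 and day 28 labels were borne out by cartilage genes: 8 of 9 measured were called higher in MSC_day28 than in MSC_day0. The mean level of the list was 4.70 to 5.03 on the 3 arrays of MSC_day0, 9.81 to 10.23 in MSC_day28 and 10.32 to 10.48 in chondrocytes_day28. Between the day 28 groups only CNMD of the 9 was called, higher in chondrocytes (3.93 ± 0.35, adjusted p = 0.000214). Of 9 marrow stromal genes, 2 were called higher in chondrocytes than in day 28 MSCs, NT5E and ACTA2, and none lower. On the MSC_day28 and chondrocytes_day28 arrays of donor 3, spiked hybridisation controls were low, with means of 10.81 and 10.85 against 12.00 to 12.33 on the other 7. The 3′ signal minus the 5′ signal of 6 control transcripts, a measure of RNA length and labelling, averaged 1.34 ± 0.23 (SD, n = 3) in MSC_day0, 1.81 ± 0.20 in MSC_day28 and 1.81 ± 0.19 in chondrocytes_day28, so that it moved with day, and its part in the changes over time was not tested.

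Over 28 days in MSCs, 3 of the 10 enzymes were called. GPX3, the secreted glutathione peroxidase of plasma and matrix, rose by 2.05 ± 0.40 (4.15-fold, adjusted p = 0.00408), while GPX1, the main peroxidase of the cytosol, fell (-1.77 ± 0.17, 3.41-fold, 9.19e-05) and GPX4, which reduces lipid hydroperoxides in membranes, fell as well (-1.70 ± 0.14, 3.24-fold, 4.96e-05). Over all genes in this comparison, 13.5% were called higher and 21.0% lower, against 1 and 2 of the 10 members. At day 28, chondrocytes had more GPX1 (1.34 ± 0.17, adjusted p = 0.00132), GPX4 (0.57 ± 0.14, 0.0341) and SOD3 (1.62 ± 0.42, 0.0404) than MSCs of the same donors. Those 3 of 10 stand beside 8.35% of all genes called higher, and no member was called lower, against 4.81% of all genes. Without adjustment 2 members, CAT and HMOX1, had a p under 0.05 in that direction in limma, the one tool run.

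**Figure D1:**
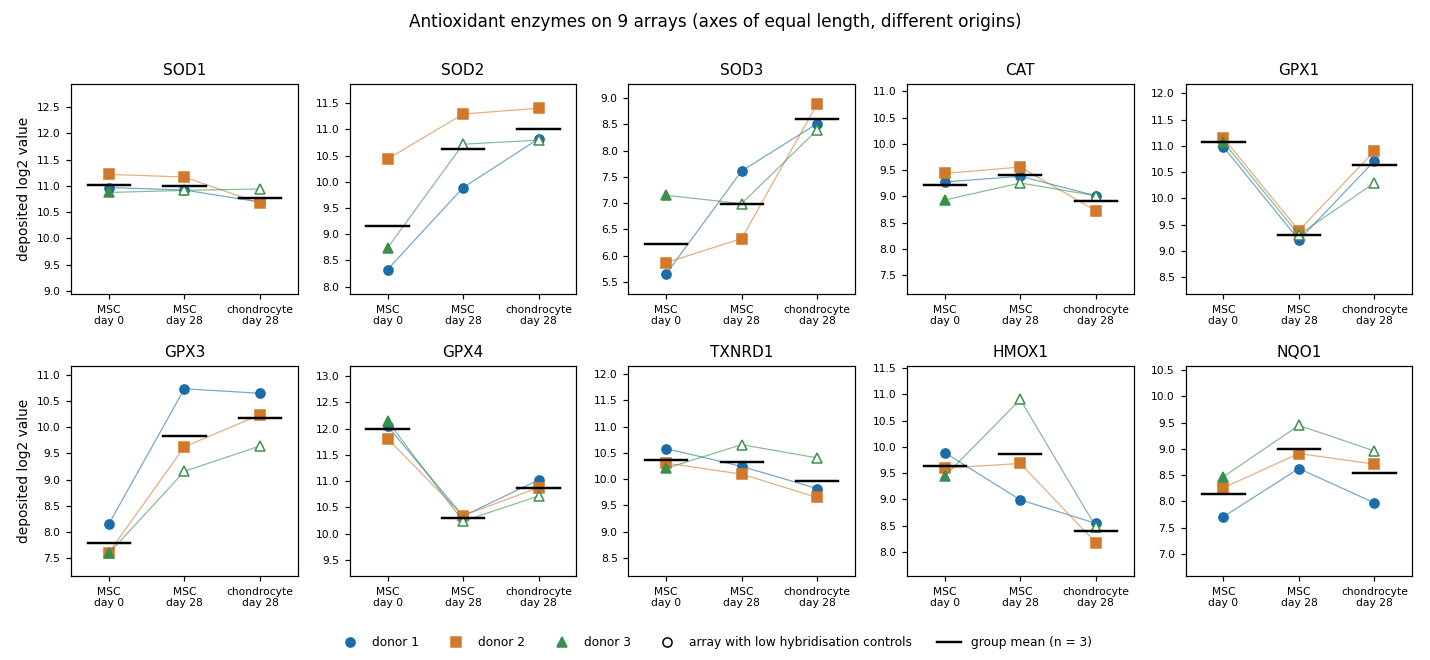
Deposited log2 value (vertical axis, the same length in every panel) of the 10 enzymes on 9 arrays, by group (horizontal axis). Each symbol is 1 array, lines join arrays of 1 donor, open symbols are the 2 arrays with low hybridisation controls and bars are group means. GPX1 and GPX4 are lowest on all 3 arrays of day 28 MSCs, with means of 9.30 and 10.30, and the HMOX1 value of MSC_day28 replicate 3, at 10.90, lies above the other 8.

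Among the superoxide dismutases, the cytosolic SOD1 was not called in any comparison. Its values were 10.97, 11.22 and 10.88 in MSC_day0, 10.92, 11.17 and 10.91 in MSC_day28 and 10.69, 10.67 and 10.94 in chondrocytes_day28. The groups overlapped in every pair, the lowest group mean being that of chondrocytes. The difference over time in MSCs was -0.02 ± 0.15 (95% interval -0.36 to 0.32, adjusted p = 0.943), whose sign turned with the scaling between arrays (0.013 with centring on ribosomal protein genes). Chondrocytes minus day 28 MSCs was -0.23 ± 0.15 (-0.58 to 0.11, 0.404) and chondrocytes minus day 0 MSCs -0.25 ± 0.15 (-0.59 to 0.09, 0.242). None of these passed, and the intervals hold changes of up to about 0.59 on the log2 scale.

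SOD2, the mitochondrial enzyme, which is also induced by inflammatory cytokines, was lowest in MSC_day0 and varied most there. The day 0 values were 8.33, 10.43 and 8.74, with an SD of 1.12 that was larger than that of 99.1% of probe sets in this group. At day 28 the MSC values were 9.89, 11.29 and 10.72, and those of chondrocytes were 10.82, 11.40 and 10.79. Donor 2 was highest in each of the 3 groups, and its day 0 value lay within the range of day 28 MSCs. The chondrocyte arrays lay above all day 0 arrays, and chondrocytes had more SOD2 than day 0 MSCs by 1.84 ± 0.53 (3.58-fold, adjusted p = 0.0273). This call ended without the 2 arrays with low controls (1.94 ± 0.66, 0.0663) and in 5 of 9 fits that left out 1 array: without MSC_day0 replicate 1 (1.42, adjusted p = 0.0972), without MSC_day0 replicate 3 (1.62) and without any 1 of the chondrocyte arrays (1.93, 1.64 and 1.94).

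In MSCs, SOD2 was higher at day 28 in all 3 donors, by 1.56, 0.86 and 1.98. Without the donor in the model the difference of 1.47 ± 0.53 did not pass (adjusted p = 0.0666), and with the donor as a block it did (1.47 ± 0.29, 0.00592). It was 2.10 (adjusted p = 0.00606) without MSC_day0 replicate 2, 1.84 (0.0422) without MSC_day28 replicate 1 and 1.05 without MSC_day0 replicate 1. Chondrocytes and MSCs at day 28 were neighbours in the order of levels and did not differ beyond their spread (0.37 ± 0.53, 95% interval -0.83 to 1.57).

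SOD3, the secreted dismutase that binds heparan sulfate in the matrix, had its highest values in chondrocytes. They were 8.52, 8.89 and 8.39, against 7.61, 6.32 and 6.99 in MSC_day28 and 5.65, 5.86 and 7.15 in MSC_day0. The chondrocyte arrays lay above all 6 MSC arrays, while the MSC groups overlapped. The difference between chondrocytes and day 0 MSCs was 2.38 ± 0.42 (5.20-fold, adjusted p = 0.00261) and kept its call under each alternative tried. Against day 28 MSCs it was 1.62 ± 0.42 (3.08-fold, 0.0404), which no longer passed without the 2 low-control arrays (1.73 ± 0.57, 0.118) and in 6 of the 9 fits without 1 array, with differences from 1.30 to 1.94 over the 9. The 6 left out MSC_day0 replicate 2 (0.0528), MSC_day28 replicate 2 (0.123) or 3 (0.0719), or 1 of the chondrocyte arrays (0.0979, 0.139 and 0.0745).

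The SOD3 change within MSCs went up in donors 1 and 2 and slightly down in donor 3 (1.96, 0.46 and -0.16) and did not pass (0.76 ± 0.42, adjusted p = 0.219), although it did without MSC_day0 replicate 3 (1.22, 0.0330). The second SOD3 probe set did not follow the first. It lay between 2.71 and 3.70 on all arrays, between the 25th percentile (2.49 to 2.55) and the median (4.91 to 5.10) of signal on the arrays, and differed by -0.23 ± 0.23, 0.26 ± 0.23 and 0.02 ± 0.23 in the 3 comparisons, none of which passed. The SOD3 result therefore rests on 1 of 2 probe sets. With the mean of both sets, chondrocytes exceeded day 0 MSCs by 1.20 (adjusted p = 0.000873) and day 28 MSCs by 0.94 (0.00904). That mean contains the first set, so it is no independent support for the calls of the first set.

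Catalase, the peroxisomal enzyme that splits hydrogen peroxide without glutathione or thioredoxin, was not called in any comparison. CAT was at 9.27, 9.44 and 8.93 in MSC_day0, 9.38, 9.56 and 9.25 in MSC_day28 and 9.01, 8.73 and 9.01 in chondrocytes_day28. All chondrocyte values lay under all day 28 MSC values, and day 0 overlapped both. Chondrocytes minus day 28 MSCs was -0.48 ± 0.17 (95% interval -0.87 to -0.10, adjusted p = 0.112) and did not pass. The change in MSCs was 0.18 ± 0.17 (-0.20 to 0.57, 0.467), and chondrocytes minus day 0 MSCs was -0.30 ± 0.17 (0.223).

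GPX1 fell almost equally in the 3 donors. It was at 10.98, 11.15 and 11.08 in MSC_day0, 9.21, 9.39 and 9.30 in MSC_day28 and 10.71, 10.90 and 10.30 in chondrocytes_day28, and no 2 groups overlapped. The fall in MSCs was the same in each calf to within 0.01, at -1.77, -1.77 and -1.77. Chondrocytes lay 1.34 ± 0.17 above day 28 MSCs (2.53-fold). Against day 0 MSCs they were at -0.43 ± 0.17 (adjusted p = 0.0806), which did not pass, although all 3 donors were lower, and passed without chondrocytes_day28 replicate 2 (-0.56, 0.0422).

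The second GPX1 probe set gave the same order of groups. It was at 9.67, 9.90 and 9.70 in MSC_day0, 7.64, 7.73 and 7.25 in MSC_day28 and 9.02, 9.48 and 8.55 in chondrocytes_day28. Its fall in MSCs was -2.22 ± 0.23 (4.66-fold, adjusted p = 0.000159) and its excess in chondrocytes over day 28 MSCs 1.48 ± 0.23 (0.00436). This set also called chondrocytes lower than day 0 MSCs (-0.74 ± 0.23, 0.0394), as did the mean of both sets (-0.59, 0.0442). The call of the second set ended with 2 scalings between arrays (adjusted p = 0.106 with ribosomal protein genes as the centre and 0.0719 with cyclic loess) and without the 2 arrays with low controls (-0.51, 0.0816). It also ended in 6 of 9 fits without 1 array, those without any 1 MSC_day0 array, MSC_day28 replicate 1 or chondrocytes_day28 replicate 1 or 3, with differences from -0.97 to -0.51 over the 9.

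GPX4, which is known for holding back ferroptosis, a form of cell death by lipid peroxidation, showed the same order. Its values were 12.05, 11.81 and 12.15 in MSC_day0, 10.34, 10.34 and 10.24 in MSC_day28 and 11.02, 10.88 and 10.72 in chondrocytes_day28, with no overlap between any groups. The spread in day 28 MSCs was small (SD 0.06, n = 3), and the fall was seen in all donors, at -1.71, -1.47 and -1.91. Chondrocytes lay below day 0 MSCs (-1.13 ± 0.14, 2.19-fold, adjusted p = 0.000398). Their excess over day 28 MSCs, 0.57 ± 0.14 (1.48-fold), was the smallest called difference of a member. That call ended when arrays were centred on the median (0.50, 0.0692), in a fit of the 2 groups alone (0.0544), without the 2 arrays with low controls (0.61, 0.0808) and in 6 of 9 fits without 1 array. Those 6 left out MSC_day0 replicate 1 (0.0545), 1 of the MSC_day28 arrays (0.0718, 0.0740 and 0.0770) or chondrocytes_day28 replicate 1 (0.113) or 2 (0.104), and the difference ran from 0.49 to 0.65 over the 9.

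GPX3 went the other way. Its values were 8.16, 7.61 and 7.59 in MSC_day0, 10.73, 9.63 and 9.16 in MSC_day28 and 10.65, 10.23 and 9.64 in chondrocytes_day28. Both day 28 groups lay above all day 0 arrays and overlapped each other, and donor 1 was highest and donor 3 lowest in each of the 3 groups. The rise in MSCs was 2.58, 2.02 and 1.56 by donor, and it was 2.39 ± 0.35 without the 2 arrays with low controls, where donor 3 had its lowest day 28 values. Chondrocytes exceeded day 0 MSCs by 2.39 ± 0.40 (5.23-fold, adjusted p = 0.00192). Between the day 28 groups the difference was 0.33 ± 0.40 (95% interval -0.56 to 1.23), which did not pass and leaves room for a change of more than 2-fold in favour of chondrocytes.

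The falls of GPX1 and GPX4 and the rise of GPX3 kept their calls under each of 13 alternative settings and in each of 9 fits without 1 array. Without 1 array, the changes in MSCs ran from -1.81 to -1.72 for GPX1, from -1.79 to -1.62 for GPX4 and from 1.61 to 2.39 for GPX3. White blood cell markers, of cells that can adhere with marrow stroma and hold much GPX1 and HMOX1, were measured on the same arrays: 5 of 11 were called lower and 1 higher in MSC_day28 than in MSC_day0. Their mean level reached 5.25 in MSC_day0 and was 3.79 there in donor 3, against 4.03, 4.15 and 3.95 in MSC_day28 and 4.33 to 4.35 in chondrocytes_day28. Its part in the results was not tested. In MSC_day0 the group means of the 11 ran from 1.70 (ITGAM) and 2.49 (PTPRC), at or under the 25th percentile of signal, to 6.46 (LAPTM5) and 9.07 (CTSS). The 5 that fell were CTSS, CD68, TYROBP, AIF1 and ITGB2, and CSF1R rose. Of 7 red cell genes measured, none was called in any comparison. HBB and HBA were between 1.94 and 2.23 in the group means of all groups, under the 25th percentile of signal. HBG lay near that percentile, and AHSP well above it, at 4.552 in MSC_day0, 4.997 in MSC_day28 and 4.361 in chondrocytes_day28.

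**Figure D2:**
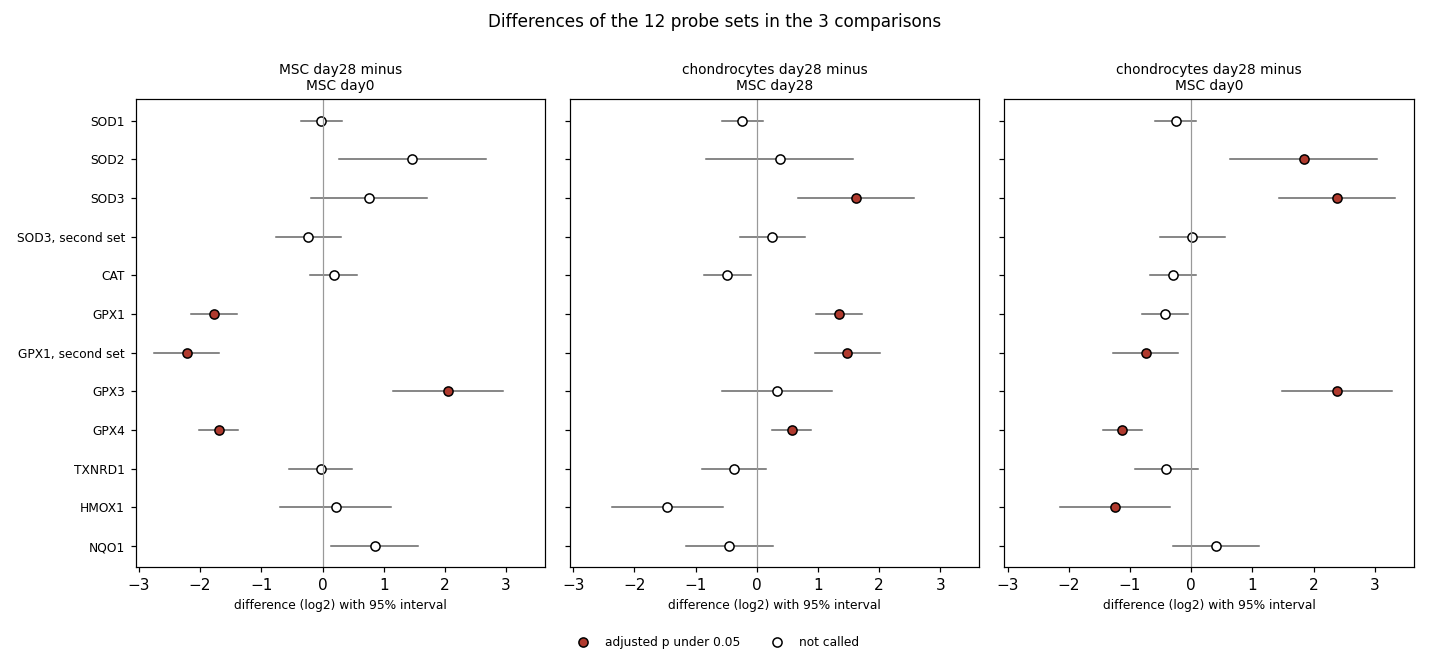
Difference between groups on the log2 scale (horizontal axis) for the 12 probe sets (vertical axis) in the 3 comparisons, with 95% intervals from the limma fit. Filled points passed an adjusted p of 0.05. The intervals of GPX1 and GPX4 lie wholly below 0 for day 28 minus day 0 MSCs (-2.15 to -1.39 and -2.02 to -1.38) and above 0 for chondrocytes minus day 28 MSCs (0.96 to 1.71 and 0.25 to 0.89), and the second SOD3 set stays near 0 throughout.

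TXNRD1, the cytosolic reductase that keeps thioredoxin active, was not called in any comparison. It was at 10.58, 10.30 and 10.21 in MSC_day0, 10.24, 10.10 and 10.66 in MSC_day28 and 9.82, 9.65 and 10.40 in chondrocytes_day28. All groups overlapped, and donor 3 was highest in both day 28 groups, on the 2 arrays with low controls. The change in MSCs was -0.03 ± 0.23 (95% interval -0.55 to 0.48), with a sign that turned under cyclic loess (0.016). Chondrocytes were at -0.41 ± 0.23 against day 0 MSCs (adjusted p = 0.218). That difference passed without the 2 arrays (-0.63 ± 0.17, 0.0311) and with low controls as a batch block (-0.60 ± 0.15, 0.0193), the latter an alternative chosen after the data had been seen. Chondrocytes minus day 28 MSCs was -0.37 ± 0.23 (0.377).

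HMOX1, which opens the haem ring to release iron, carbon monoxide and biliverdin, was lowest in chondrocytes. Its values were 8.54, 8.17 and 8.48 there, 9.89, 9.59 and 9.44 in MSC_day0 and 8.99, 9.68 and 10.90 in MSC_day28. The chondrocyte arrays lay under all 6 MSC arrays. The day 28 MSCs were spread over nearly 2 log2 units (SD 0.97, n = 3), more than 97.9% of probe sets in that group, with the highest value on an array with low controls. The change in MSCs differed in sign between donors (-0.90, 0.09 and 1.46), averaged 0.22 ± 0.40 (adjusted p = 0.738) and was -0.31 without the 2 arrays with low controls.

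The difference between chondrocytes and day 0 MSCs in HMOX1 was called (-1.24 ± 0.40, 2.37-fold, adjusted p = 0.0425). It was as large without the 2 arrays with low controls (-1.28 ± 0.25, 0.00933), but it was not called with centring on ribosomal protein genes (-1.05, 0.0814), with cyclic loess (-1.16, 0.0567) and in 7 of 9 fits without 1 array, with differences from -1.34 to -1.12. The call held without MSC_day28 replicate 1 or 3, and the highest adjusted p, 0.126, was without MSC_day0 replicate 1. Against day 28 MSCs the larger difference of -1.46 ± 0.40 stood just outside the threshold (adjusted p = 0.0507). With the donor as a block it passed (adjusted p = 0.0497). Without MSC_day28 replicate 1 it was -1.90 and passed (0.0131). Without MSC_day28 replicate 3 it was -0.94 and passed (adjusted p = 0.0426), and without both arrays with low controls it was -0.98 and did not (0.0796).

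NQO1, a quinone reductase that keeps quinones from cycling back to superoxide, was ordered by donor in every group. It was at 7.71, 8.26 and 8.47 in MSC_day0, 8.63, 8.91 and 9.45 in MSC_day28 and 7.97, 8.71 and 8.96 in chondrocytes_day28, so that donor 1 was lowest and donor 3 highest each time. All day 28 MSC arrays lay above all day 0 arrays, by 0.92, 0.65 and 0.98 within donors, and the chondrocytes overlapped both. The rise in MSCs of 0.85 ± 0.31 (1.80-fold) did not pass without the donor in the model (adjusted p = 0.0700) and passed with the donor as a block (0.85 ± 0.14, 0.00291). Without the 2 arrays with low controls it was 0.62 ± 0.30 (0.177), and without chondrocytes_day28 replicate 1, which changes the pooled spread alone, the adjusted p was 0.0451. Chondrocytes differed from day 28 MSCs by -0.45 ± 0.31 (95% interval -1.15 to 0.26) and from day 0 MSCs by 0.40 ± 0.31 (-0.30 to 1.11), neither of which passed.

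Over the 10 members, the comparison of chondrocytes with day 0 MSCs, which shares its arrays with the other comparisons, had 3 called higher (SOD2, SOD3 and GPX3) and 2 lower (GPX4 and HMOX1), against 15.1% and 20.9% of all genes. The median difference of the members was 0.20 in day 28 minus day 0 MSCs, 0.05 in chondrocytes minus day 28 MSCs and -0.28 in chondrocytes minus day 0 MSCs, beside -0.11, -0.02 and -0.12 over all genes. The median size, whatever the sign, was 0.80, 0.47 and 0.78, beside 0.40, 0.26 and 0.42. Groups did not overlap for 4, 5 and 6 of the 10 members, against 46.9%, 32.0% and 53.9% of all genes. In total 6 members were called in at least 1 comparison, and SOD1, CAT, TXNRD1 and NQO1 in none.

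The other redox genes were taken from 14 lists of 137 genes, of which 102 had a named probe set. In day 28 minus day 0 MSCs 14 were called higher and 26 lower, in chondrocytes minus day 28 MSCs 8 and 9, and in chondrocytes minus day 0 MSCs 11 and 23. Over all genes the shares called higher and lower were, in the same order, 13.5% and 21.0%, 8.35% and 4.81%, and 15.1% and 20.9%, against which the counts of each list below are to be read. The 2 other glutathione peroxidases measured were GPX2, which was not called in any comparison, and GPX7, a peroxidase of the endoplasmic reticulum. GPX7 was at 10.38, 10.22 and 10.15 in MSC_day0, 8.70, 8.81 and 9.29 in MSC_day28 and 9.64, 10.18 and 10.11 in chondrocytes_day28. Like GPX1 it was thus lowest in day 28 MSCs, where it had fallen by 1.32 (standard error 0.20, adjusted p = 0.00119), and chondrocytes lay above them (1.04 ± 0.20, 0.0119, and an adjusted p of 0.0536 without chondrocytes_day28 replicate 2).

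Peroxiredoxins, which reduce peroxides through a reactive cysteine, had 2 of 6 members that fell in MSCs, against 21.0% of all genes: PRDX2 (-0.76 ± 0.14, adjusted p = 0.00351) and PRDX6, the member that acts with glutathione (-0.72 ± 0.23, 0.0429). The PRDX6 call ended under several alternatives, and of its 3 further probe sets 2 fell and 1 did not pass. None was called between the day 28 groups, where PRDX2 (0.41 ± 0.14) had an unadjusted p under 0.05 in limma and the other 5 did not. PRDX4, the peroxiredoxin of the secretory pathway, was higher in chondrocytes than in day 0 MSCs (0.70 ± 0.15, 0.00767), and PRDX6 lower (-0.84 ± 0.23, 0.0225). The latter call ended with ribosomal centring (0.0516) and without MSC_day0 replicate 1 (0.0623), MSC_day0 replicate 2 (0.0724) or chondrocytes_day28 replicate 3 (0.0775), and 1 of the 3 further sets was called.

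In the thioredoxin system, 5 of 9 genes were called lower and none higher in day 28 than in day 0 MSCs, and 6 of 9 lower and none higher in chondrocytes than in day 0 MSCs, against a background of 21.0% and 20.9%. TXN, the cytosolic thioredoxin, was at 11.89, 11.89 and 11.71 in MSC_day0, 11.10, 11.08 and 10.58 in MSC_day28 and 10.66, 10.78 and 10.35 in chondrocytes_day28. It fell in MSCs (-0.91 ± 0.18, adjusted p = 0.00480), and chondrocytes were lower than day 0 MSCs (-1.23 ± 0.18, 0.000984). TXNL1 (-1.03 ± 0.17, with a second set at -0.35 ± 0.13 that did not pass) and the mitochondrial glutaredoxin GLRX2 (-1.93 ± 0.27) fell in MSCs too. GLRX3 fell by its set of highest mean (-0.65 ± 0.16), whereas its second set rose by 2.36, so that the gene has no settled direction. It is counted as lower in both comparisons above. TXN2, also among the 5 in MSCs, lost that call in fits without 1 array (adjusted p up to 0.0604). SRXN1, the sulfiredoxin that repairs overoxidised peroxiredoxins, was at 8.89, 9.17 and 8.69 in MSC_day28 and 6.84, 7.06 and 7.44 in chondrocytes_day28, and was the 1 gene of the list called between these groups (-1.81 ± 0.27, 3.50-fold, 0.00341).

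For glutathione itself, GCLM, the modifier subunit of the enzyme that limits its synthesis, was lower in chondrocytes than in either MSC group (-1.40 ± 0.28, adjusted p = 0.0145, against day 28, and -1.49 ± 0.28, 0.00379, against day 0). Its chondrocyte values, 2.96, 2.55 and 3.14, lay near the 25th percentile of signal. The call against day 28 ended without chondrocytes_day28 replicate 2 (adjusted p = 0.0622). The catalytic subunit GCLC was at -0.12 ± 0.27, 0.00 ± 0.27 and -0.12 ± 0.27 in the 3 comparisons and was not called. Of the 8 genes of this list, 3 rose in MSCs and none fell, against 13.5% and 21.0% of all genes. They were glutathione reductase, GSR (0.59 ± 0.19, 0.0421), CHAC1 and OPLAH. The GSR call ended without the 2 arrays with low controls (0.0996) and in 7 of 9 fits without 1 array. That of CHAC1 also ended without the 2 arrays (0.107), and that of OPLAH with the mean of its sets (0.346). Among 9 glutathione transferases, GSTM3 was highest in day 28 MSCs, at 9.94, 10.16 and 9.41 against 7.84, 7.97 and 7.32 in MSC_day0 and 8.21, 8.23 and 8.17 in chondrocytes_day28. It rose in MSCs (2.13 ± 0.22, 0.000158), and chondrocytes were lower than day 28 MSCs (-1.63 ± 0.22, 0.00216). The membrane-bound MGST3 fell in MSCs (-1.31 ± 0.31, 0.0109).

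Of the 6 measured genes around NRF2, 2 were lower in chondrocytes than in day 28 MSCs and 3 lower than in day 0 MSCs. These counts stand beside 4.81% and 20.9% of all genes called lower, and none of the 6 was higher in either. Among the 3 were NFE2L2, whose second set did not pass against day 0 (-0.30 ± 0.24, adjusted p = 0.404), and KEAP1, from which NRF2 is released. The KEAP1 call ended with ribosomal centring (0.0902), without the 2 arrays with low controls (0.0584) and in fits without 1 array (up to 0.0809). NFE2L2 was at 9.75, 9.47 and 9.43 in MSC_day0, 9.53, 9.59 and 9.87 in MSC_day28 and 8.40, 8.72 and 8.68 in chondrocytes_day28. The chondrocyte values lay under all MSC values, with a difference of -1.06 ± 0.16 from day 28 MSCs (adjusted p = 0.00326), and the second probe set was lower too (-1.35 ± 0.24, 0.00823). Within MSCs the sets differed: the first did not pass (0.11 ± 0.16) and the second rose (1.05 ± 0.24, 0.00988). The second NFE2L2 set was low, with group means of 2.44 in MSC_day0, 3.49 in MSC_day28 and 2.14 in chondrocytes_day28. Those of MSC_day0 and chondrocytes_day28 lay under the lower quartile of signal on the arrays (2.49 to 2.55), so that the differences of this set carry less weight. SQSTM1, an autophagy receptor that binds KEAP1, was lower in chondrocytes than in day 28 MSCs by its set of highest mean (-0.61 ± 0.12, 0.0123), but the second set was at 0.06 ± 0.19 and did not pass. Beside NFE2L2, the NRF2 targets SRXN1 and GCLM were lower in chondrocytes than in day 28 MSCs. HMOX1 missed the threshold, and NQO1 (-0.45 ± 0.31) and TXNRD1 (-0.37 ± 0.23) were not called. These targets were chosen with their values known. Elsewhere in the lists GCLC was not called in this comparison, and IDH1 and PGD were called higher, by fragile calls. Of 10 other quinone and aldehyde reducing enzymes, 2 were called higher in this comparison and none lower, against 8.35% and 4.81% of all genes. Whether NRF2 activity differed between the groups was not tested.

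**Figure D3:**
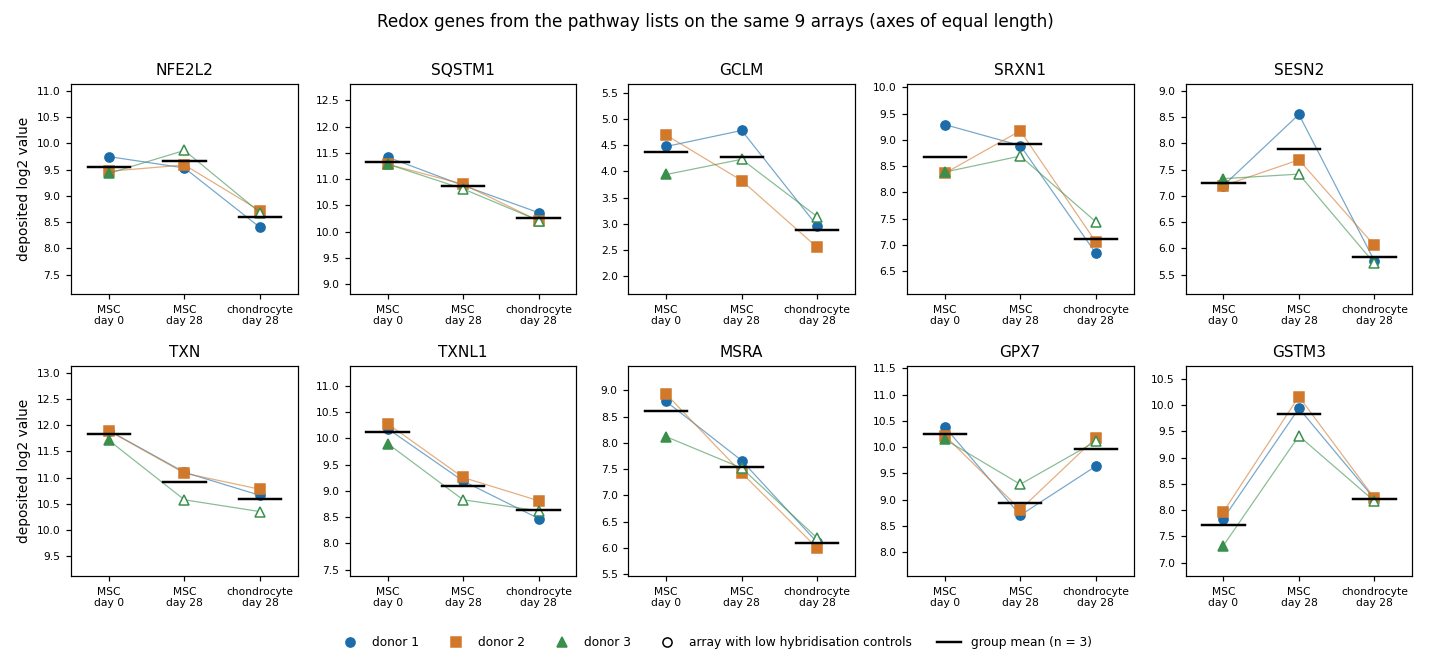
Deposited log2 value (vertical axis, the same length in every panel) of 10 redox genes of the pathway lists on the 9 arrays, by group (horizontal axis), with symbols, lines and bars as in the plot of the enzymes by array. These 10 were chosen with their values known. NFE2L2, GCLM, SRXN1 and SESN2 are lower on the 3 chondrocyte arrays than on all 6 MSC arrays, GPX7 is lowest in day 28 MSCs and GSTM3 highest there.

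SESN2, a sestrin induced by stress and by NRF2, was also lower in chondrocytes, at 5.76, 6.05 and 5.71 against 8.55, 7.68 and 7.41 in MSC_day28 (-2.04 ± 0.26, adjusted p = 0.00154). Of its 2 further probe sets 1 was lower and 1 did not pass. SESN1, by contrast, rose in MSCs (2.07 ± 0.29, 0.000712) by its set of highest mean, with 2 further sets at -0.18 and 0.22 that did not pass. MSRA, which repairs oxidised methionine, fell from 8.79, 8.93 and 8.12 in MSC_day0 to 7.66, 7.43 and 7.52 in MSC_day28, and stood at 6.10, 5.99 and 6.19 in chondrocytes_day28. Each of its 3 differences was called (-1.08 ± 0.21, -1.44 ± 0.21 and -2.52 ± 0.21).

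The enzymes that supply NADPH to glutathione and thioredoxin reductases fell in 3 of 8 cases in MSCs and rose in 1, against 21.0% and 13.5% of all genes. IDH1 (-1.35 ± 0.22, adjusted p = 0.00172) and PGD, of the pentose phosphate pathway (-1.12 ± 0.15, 0.000639), fell, and chondrocytes were higher than day 28 MSCs in both (0.95 ± 0.22, 0.0265, and 0.58 ± 0.15, 0.0424). Those 2 calls were fragile: both ended without the 2 arrays with low controls (0.0995 and 0.0623) and in a fit of the 2 groups alone (0.0564 and 0.0939), that of PGD also with median centring (0.0777) and in 8 of 9 fits without 1 array, and that of IDH1 in 4 of 9. The 2 further IDH1 sets were not called (0.117 and 0.302). In haem and iron handling, where HMOX1 acts, ceruloplasmin, CP, a ferroxidase, rose in MSCs by 5.46 ± 0.18 (44.1-fold, 2.82e-07), with both further probe sets called as well. BLVRA, which turns biliverdin into bilirubin, fell (-1.20 ± 0.17, 0.000778), and the ferritin subunits FTH1 (0.14 ± 0.12) and FTL (-0.12 ± 0.15) were not called. The transferrin receptor, TFRC, was higher in chondrocytes than in day 28 MSCs (2.46 ± 0.18, 7.46e-05).

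Of 12 further selenoproteins and genes that make them, 4 fell and 1 rose in MSCs, against 21.0% and 13.5% of all genes. SELENOH (-0.90 ± 0.16, adjusted p = 0.00237) and PSTK, the kinase that prepares the selenocysteine transfer RNA (-1.27 ± 0.26, 0.00563), kept their calls under each alternative. SELENOM and EEFSEC fell by their sets of highest mean (-1.03 and -0.67) and not with the mean of their sets (adjusted p = 0.0689 and 0.0978). SEPHS1 rose (0.78 ± 0.23, 0.0282), without a call in 4 fits that left out 1 array. SELENOP, the selenium carrier, was at 6.17, 8.52 and 6.02 in MSC_day28 and was not called (0.10 ± 0.68). Of the metal handling genes, ATOX1, a copper chaperone, fell in MSCs (-1.25 ± 0.21, 0.00185), and CCS, the chaperone that loads copper onto SOD1, was not called (0.22 ± 0.37).

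Of 10 enzymes that produce oxidants, 3 were called higher in MSCs at day 28 and none lower, against 13.5% and 21.0% of all genes: xanthine dehydrogenase, XDH (1.50 ± 0.32, adjusted p = 0.00680, with a second set at 1.45 that was called), the mitochondrial monoamine oxidase MAOA (2.16 ± 0.46, 0.00653) and the inducible nitric oxide synthase NOS2 (2.46 ± 0.50, 0.00524). Only 1 of 4 NOS2 probe sets changed, the other 3 lying between -0.09 and -0.03. The NADPH oxidase gene NOX4 was not called by either of its sets (0.23 ± 0.14 and -0.08 ± 0.15). The sets of CYBB, a phagocyte oxidase subunit, differed: that of highest mean was not called (-0.21 ± 0.16) and the second was lower at day 28 (-1.01 ± 0.20, 0.00402). None of the 10 was called between the day 28 groups, where MAOA (1.36 ± 0.46) had an unadjusted p under 0.05 in limma and the other 9 did not. Among 10 other quinone and aldehyde reducing enzymes 3 fell in MSCs and none rose, against 21.0% and 13.5% of all genes. CBR3, a carbonyl reductase, was 1 of them (-2.42 ± 0.23, 9.56e-05). NQO2, the relative of NQO1, was not called in MSCs by any of its 3 sets (0.29 ± 0.24 for that of highest mean). In chondrocytes 2 of these 10 reducing enzymes were called higher than in day 28 MSCs and none lower, against 8.35% and 4.81%. AKR1A1 was 1 of the 2, and its call ended in a fit of the 2 groups alone (0.858, adjusted p = 0.0801). The differences of the 10 ran from -0.44 to 3.43, the largest rise of any list gene in this comparison. Against day 0 MSCs 1 was called higher and 1 lower, against 15.1% and 20.9%, with differences from -1.63 to 4.25.

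**Figure D4:**
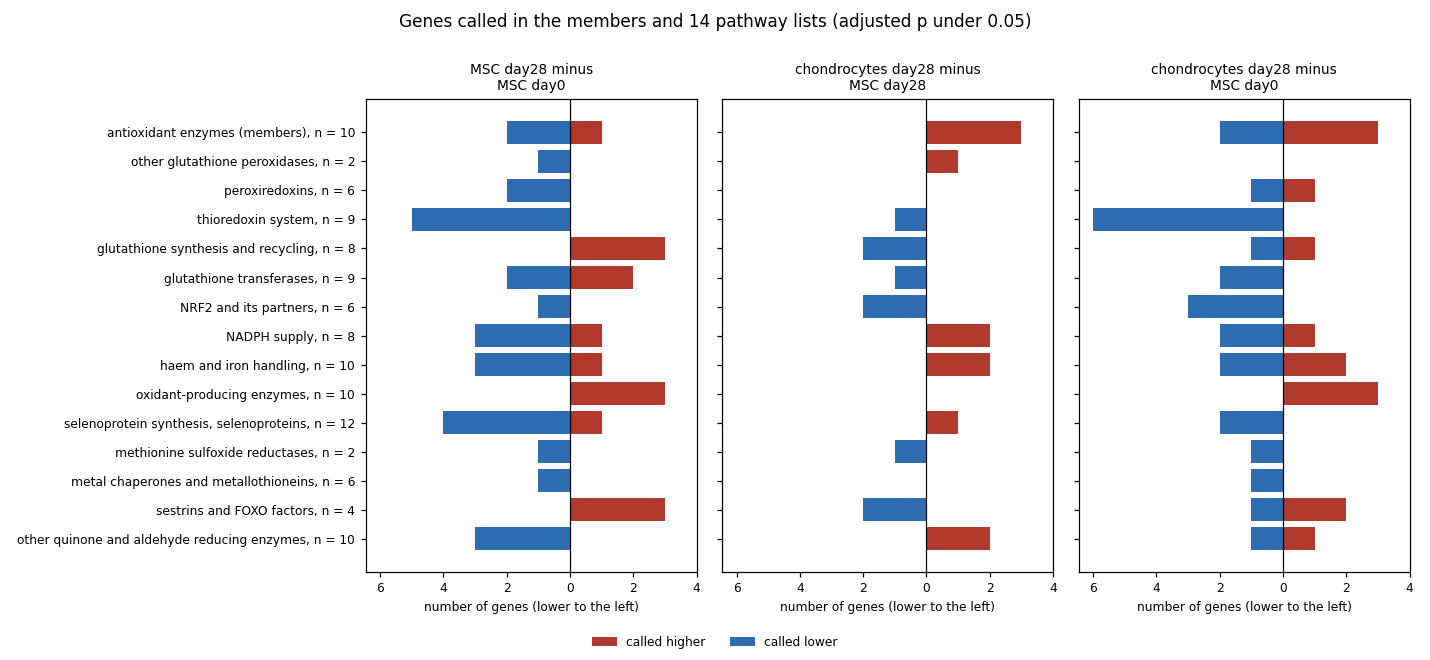
Number of genes called higher (right of 0) and lower (left of 0) at an adjusted p under 0.05 (horizontal axis) in the members and 14 pathway lists (vertical axis, with the number measured) for the 3 comparisons. The thioredoxin system has 5 of 9 genes lower in day 28 than in day 0 MSCs and 6 of 9 lower in chondrocytes than in day 0 MSCs, and oxidant-producing enzymes have 3 of 10 higher in both. GLRX3, counted as lower in both comparisons, has a second probe set that was higher in both.

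The genes whose pattern over the 9 arrays was most like that of a member were sought for the 2 members whose group means spanned at least 2 on the log2 scale, SOD3 and GPX3. Likeness was measured as the root mean square difference between values centred on each gene's own mean. For SOD3 the nearest were NAPRT, an enzyme of NAD synthesis (0.32), RASSF5 (0.35) and ARHGEF37 (0.37). For GPX3 they were adenylate kinase AK1 (0.40), MAP6D1 (0.40) and pyruvate carboxylase, PC (0.42). The group means of AK1 were 8.26, 10.02 and 10.64 in MSC_day0, MSC_day28 and chondrocytes_day28, beside 7.79, 9.84 and 10.17 for GPX3.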

How the data were processed

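RNA of 9 samples was measured on 1 array each. RNA isolated with trizol was copied from its poly(A) tail, amplified and tagged with biotin, per the labels, which favours 3′ ends. The deposited values are log2 expression, and the submitters' processing notes name RMA as the method. It corrects background, quantile-normalizes arrays and summarises probe sets, so that a global shift of RNA per cell cannot be seen. No version of RMA is given in the sources used here.

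Of 24128 deposited probe sets, 112 controls were left out, leaving 24016, of which 13292 had 1 gene symbol, 86 several and 10638 none. Symbols came from the platform annotation, and all 10 members were found by gene identifier in a RefSeq table. A gene stood by its set of highest mean. A model of 3 group means over all arrays was fitted in limma 3.58.1 (R 4.3.3, lmFit and eBayes), with Benjamini-Hochberg adjustment over all sets, and tested on simulated data. Donors are calves shared between groups. Deviations from group means correlated by 0.11 to 0.41 between arrays of 1 donor and by -0.30 to 0.15 between donors. The donor block is an alternative. Its value is printed where it changes a call.

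Members, lists and alternatives were chosen with earlier results of these data known. List genes were selected as those of smallest p in each list and comparison and up to 3 further called genes of largest difference. Only part of the selected genes are named in the text, chosen with their values known. List genes named as not called, and the NRF2 targets set side by side, were chosen with their values known.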

Additional observations from a re-analysis of the deposited data

How the results depend on the processing

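With the donor as a block, the pairing of arrays by calf, 3 members were called higher in day 28 than in day 0 MSCs instead of 1, with SOD2 (0.00592) and NQO1 (0.00291) added, and 1 instead of 0 lower in chondrocytes than in day 28 MSCs, HMOX1 (0.0497). The block changed no other member's call. Among the called differences of the selected list genes it ended that of CHAC1 in chondrocytes minus day 0 MSCs (0.0696). The first count was also 3 with the filter at the median signal, 2 with array weights and 1 to 2 without 1 array. The count lower in chondrocytes than in day 28 MSCs was also 1 with median centring, either filter, the mean of probe sets, trended and robust variance or the low controls as a batch block, and 0 to 1 without 1 array. The count of 3 higher there was 1 without the 2 arrays with low controls and 1 to 3 without 1 array. The count of 2 lower in chondrocytes than in day 0 MSCs was 1 with centring on ribosomal protein genes, 1 with cyclic loess and 1 to 2 without 1 array.

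The uncalled differences of day 28 minus day 0 MSCs that changed sign were SOD1 (0.013 with ribosomal centring, 0.030 with cyclic loess, 0.0014 with array weights, 0.025 without the 2 arrays with low controls, -0.10 to 0.080 without 1 array), HMOX1 (-0.31 without those arrays, -0.064 with the batch block, -0.31 to 0.65) and TXNRD1 (0.016 with cyclic loess, -0.19 to 0.085). GPX3 in chondrocytes minus day 28 MSCs ran from -0.0058 to 0.78 without 1 array. The second SOD3 set ran from -0.47 to 0.023 in MSCs and from -0.22 to 0.28 in chondrocytes minus day 0 MSCs, where it was -0.099 with median centring and -0.048 with array weights. The cause of these changes was not tested. Where the probe set chosen differs, GLRX3 turned to 0.86 (mean of sets) and 2.36 (set of largest SD) in MSCs and to 0.63 and 2.04 in chondrocytes minus day 0 MSCs, and SQSTM1 to 0.062 (set of largest SD) in chondrocytes minus day 28 MSCs.

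With ribosomal centring the median difference over all probe sets shifted by 0.17 in chondrocytes minus day 28 MSCs and by 0.20 in chondrocytes minus day 0 MSCs, and with median centring by -0.12 in the latter. The probe sets called higher and lower then numbered 2172 and 575 (ribosomal) or 1344 and 1359 (median) in the former, against 1506 and 976, and 4861 and 2480 or 3110 and 5255 in the latter, against 3622 and 3823. Of 302 values of called member differences under the alternatives, 262 kept the call and 40 lost it, and none changed sign. With 3 arrays a group, precision is set by their number, and changes of low probe sets are compressed towards background.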
